A study of Homo sapiens with 8 samples.

Results

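The 4 libraries of bortezomib (BTZ)-resistant (BR) LP-1 cells were compared with the 4 libraries of the wild-type (WT) parent line, which together are all 8 libraries of the series. LP-1 is a human multiple myeloma cell line whose t(4;14) translocation drives NSD2 and FGFR3. BR cells had been cultured with BTZ for 2 months, the vehicle libraries included, and WT cells had not. Each line was given DMSO vehicle or 25 nM SI-2, an inhibitor of the coactivator SRC-3, for 24 h, with 2 libraries per condition. Whether BR was 1 clone or a pool, and whether BTZ was present at harvest, is not given in the sources used here. Values are CPM, read counts scaled to a common library size by TMM, and where 4 values per line are listed, the order is vehicle 1 and 2, then SI-2 1 and 2. The fit held line and treatment as terms, a log2 fold change is BR minus WT, and a gene was called at an adjusted p under 0.05 (edgeR quasi-likelihood test, Benjamini-Hochberg over all genes tested). The study calls the replicate BR libraries independent experiments, and the sources used here do not say this of the WT libraries, whose spread may be technical. Same-numbered vehicle and SI-2 libraries of a line deviated together (correlation 0.52 in WT and 0.46 in BR). The fit counts them as independent, so adjusted p values may be too small.

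BTZ blocks the proteasome, the complex that degrades ubiquitin-tagged proteins. Myeloma cells are malignant plasma cells, which make large amounts of immunoglobulin and so load the endoplasmic reticulum (ER), its chaperones and the unfolded protein response. In bulk RNA, fewer cells of a type and less RNA per cell cannot be told apart.

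Total estimated counts were 17997771 to 18570027 per library. The defining plasma cell genes were present in all libraries: JCHAIN ranged from 2456 to 3904 FPKM, TNFRSF17, the BCMA antigen, from 209 to 402 FPKM and IRF4 from 143 to 239 FPKM, whereas SLAMF7 reached at most 0.60 FPKM. The B cell genes MS4A1, PAX5 and CD22 had at most 2 counts in any library. A library stood apart. The second BR SI-2 library held 1032 counts of COL1A1, 998 of COL3A1, 143 of DCN, 26 of EPCAM and 40 of GNLY, whereas the other 7 libraries held at most 6, 5, 1, 1 and 5. Summed CPM of the 8 stromal markers was 129.6 there and 0.278 to 0.743 in the other libraries. For genes of the ATF4 amino acid response, the summed levels of the lines overlapped. The first WT SI-2 library was the lowest of WT at 12082 CPM and the first BR vehicle library the highest of BR at 15765 CPM. The first WT vehicle library, at 15224 CPM, also lay within the BR range. The number of genes called is given below with and without the first WT SI-2, the first BR vehicle and the second BR SI-2 library. The part of the stray reads in any difference was not tested.

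Of 13520 genes tested, 46 were called (0.340%), 14 higher (0.104%) and 32 lower (0.237%) in BR. Of these, 35 differed at least 2-fold, 13 of them upwards. Without adjustment, 1848 genes had a p under 0.05, and the median log2 fold change over all genes tested was 0.0032. The libraries of both lines did not overlap for 1108 genes (8.20%), with all BR libraries above all WT libraries for 519 (3.84%) and below for 589 (4.36%). All 46 called genes were among them, and for 30 of the 46 the nearest libraries of the lines were at least 1.5-fold apart. The widest gaps were those of IFT27, CRYBB1 and IGF2BP3, at 7.03, 3.76 and 3.40-fold. The number called depended on single libraries. It rose only without the first WT SI-2 library and fell without each of the others. It was 28 without the first and 10 without the second WT vehicle library, 13 without the second WT SI-2 library, 22 and 8 without the first and the second BR vehicle library, and 23 and 12 without the first and the second BR SI-2 library. Without both the first WT SI-2 and the first BR vehicle library it was 157, of which 34 were among the 46, and without these and the second BR SI-2 library it was 16, of which 10 were. No called gene changed sign in any of up to 21 alternative fits per gene, which follows largely from their libraries not overlapping. There were 7 genes called in all 21, IGF2BP3, CRYBB1, P4HA2, IFT27, ETV5 and CDKN1A among them, and these 7 and LY9 were the 8 genes called with each single library left out. The other 38 lost the call without at least 1 library. Of these, 7 lost it whichever 1 library was left out, AIG1, KLHL29, MCTP2, P2RX7, SELENOM and SPRY4 among them. Among the 46, the largest change in a log2 fold change without the second BR SI-2 library was 0.25. Genes that were not called moved more, such as IGFBP4, an insulin-like growth factor binding protein, from 3.28 to 1.41, and the epithelial cadherin gene CDH1, from 0.68 to -0.04.

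**Figure D1:**
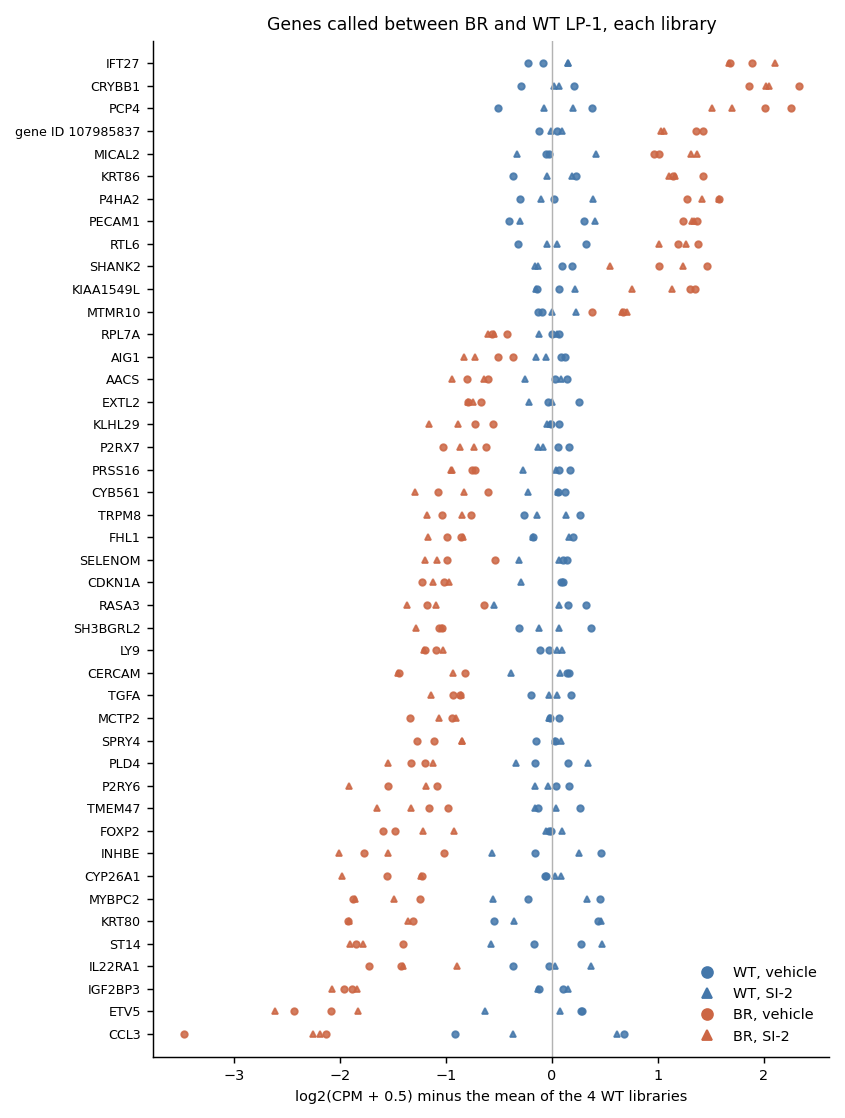
Each row is 1 of 44 of the 46 called genes, and each point is 1 library, plotted as log2(CPM + 0.5) minus the mean of the 4 WT libraries (circles, vehicle; triangles, SI-2; blue, WT; orange, BR). No BR point reaches a WT point in any row, and IFT27, CRYBB1 and PCP4 lie farthest to the right while CCL3, ETV5 and IGF2BP3 lie farthest to the left.

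The called genes differed in the same direction under both treatments. All 46 called genes had the same sign in vehicle and in SI-2, which follows from their libraries not overlapping. Of them, 32 differed at least 2-fold in both. The line by treatment interaction called 0 genes in edgeR, with 60 at an unadjusted p under 0.05, and 1 in DESeq2, the read-through gene CORO7-PAM16. Among the called genes the smallest unadjusted interaction p was 0.148, that of KIAA1549L, whose log2 fold change was 1.39 in vehicle and 0.93 in SI-2. These genes were called on the difference over both treatments, which favours genes that differ alike in both.

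Several genes that ERK signalling switches on were lower in BR. The receptor kinase cascade from RAS to ERK induces transcription factors of the ETS and AP-1 families and, as feedback, SPRY and DUSP genes that restrain it. Of 18 tested ERK output genes, 2 were called, both lower, and 8 had all BR libraries below all WT libraries, a share of 44.4% against 4.36% of all genes. Like the other lists, this one was chosen with earlier results of these data known, that of ETV5 among them. This may raise its share, so the shares are not fully comparable. DESeq2 called 8, all lower. The list's median log2 fold change was -0.45, with 14 of 18 negative. ETV5, an ETS factor, was at 25.9, 25.6, 13.4 and 22.3 CPM in WT and 4.57, 3.50, 5.59 and 3.03 CPM in BR. The lowest WT library, the first SI-2 one, was still 2.40-fold above the highest BR library (log2 fold change -2.36 ± 0.25 (SE), adjusted p = 0.00563). SPRY4, a feedback inhibitor of receptor kinase signalling, was at 2.44, 2.82, 2.97 and 2.84 CPM in WT and 0.847, 1.01, 1.31 and 1.30 CPM in BR, which does not overlap (log2 fold change -1.31 ± 0.19 (SE), adjusted p = 0.0267). SPRY4 lost the call whichever 1 library was left out (adjusted p 0.0546 to 0.110, edgeR). ETV4, the closest relative of ETV5, was at 3.58, 4.60, 3.79 and 5.56 CPM in WT and 1.02, 1.804, 0.712 and 1.77 CPM in BR and just missed the threshold (log2 fold change -1.71, adjusted p = 0.0581). EGR1, an immediate early transcription factor, was at 4.32, 1.05, 3.95 and 1.45 CPM in WT and 0.282, 0.424, 0.383 and 0.678 CPM in BR, low in every library and without overlap (log2 fold change -2.59, adjusted p = 0.103). FOS, ETV1, DUSP5 and IL1RAP were also below WT in every library without being called, while DUSP4 overlapped (log2 fold change 0.28, adjusted p = 0.458). The list's summed level was 306, 395, 359 and 415 CPM in WT and 227, 278, 293 and 302 CPM in BR, so that the lowest WT value, that of the first vehicle library, lay just above the highest BR value.

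**Figure D2:**
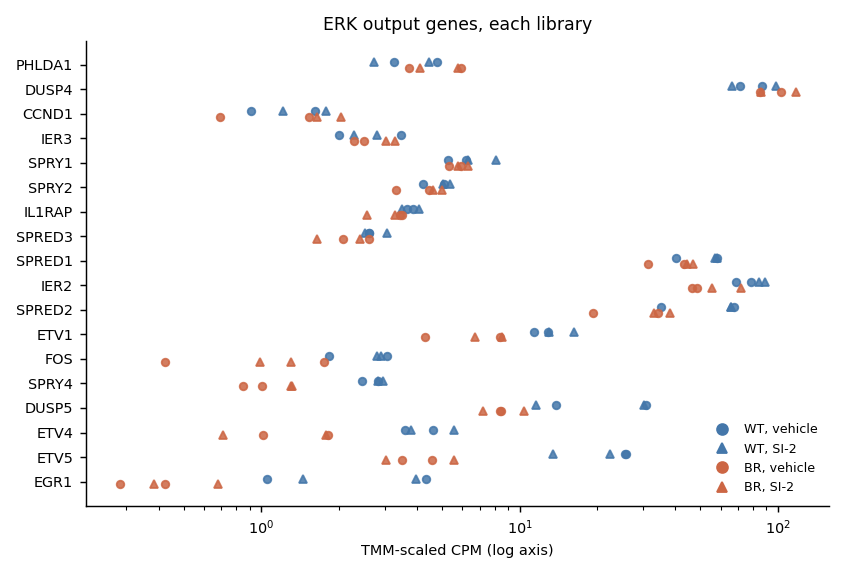
Each row is 1 of the 18 tested ERK output genes, with TMM-scaled CPM on a log axis and 1 point per library (circles, vehicle; triangles, SI-2; blue, WT; orange, BR). The lowest rows, EGR1, ETV5, ETV4, DUSP5 and SPRY4, show BR wholly to the left of WT, and the top rows overlap.

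Upstream of ERK, 2 of 27 tested ligands, receptors and RAS regulators were called (0.340% of all genes), both lower, in a list drawn up after the called genes were seen. The list as a whole was balanced, with 2 genes above and 2 below WT in every BR library (7.41% each), 13 positive and 14 negative, and a median log2 fold change of -0.0036. TGFA, a ligand of the EGF receptor, was at 2.27, 3.10, 2.80 and 2.61 CPM in WT and 1.24, 1.17, 1.26 and 0.939 CPM in BR. Every BR library lay below every WT library (log2 fold change -1.23 ± 0.21 (SE), adjusted p = 0.0472). RASA3, a GTPase-activating protein that switches RAS and RAP off, was at 17.1, 19.3, 10.3 and 16.1 CPM in WT and 9.66, 6.47, 6.90 and 5.63 CPM in BR. Its lines did not overlap, although the first WT SI-2 library and the first BR vehicle library nearly met (log2 fold change -1.13 ± 0.18 (SE), adjusted p = 0.043). FGFR3, the receptor placed under immunoglobulin control in LP-1, went the other way without being called, at 885, 901, 638 and 958 CPM in WT and 1465, 1251, 1072 and 1282 CPM in BR (log2 fold change 0.58, adjusted p = 0.132). EGR1 is shown with its promoter because it had the lowest log2 fold change of the list and its window holds CArG boxes, the motif of serum response factor (CC, then 6 bases that are each A or T, then GG), searched on both strands. RefSeq (GRCh38.p14) places these 250 bases before its start at chr5:138465229-138465478 on the plus strand, with both boxes in capitals.
EGR1: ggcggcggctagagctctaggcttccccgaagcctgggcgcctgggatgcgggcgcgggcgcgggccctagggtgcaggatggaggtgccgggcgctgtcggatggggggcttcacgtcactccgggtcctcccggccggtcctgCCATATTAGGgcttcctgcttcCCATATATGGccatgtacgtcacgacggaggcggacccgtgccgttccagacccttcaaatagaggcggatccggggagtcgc
Of 35116 RefSeq promoter windows of 300 bases, 454 held a CArG box (1.29%), and of the 12 tested ERK output genes with a window, only EGR1 did. Of 30 called genes with a window, 2 held one. The shorter ETS core CCGGAAG was in 10.3% of all windows and in 9.09% of the windows of ERK output genes.

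CDKN1A, which encodes the cyclin-dependent kinase inhibitor p21, was at 79.8, 81.01, 61.3 and 81.05 CPM in WT and 31.8, 36.9, 38.2 and 34.4 CPM in BR. All BR libraries held less than the lowest WT library, the first SI-2 one (log2 fold change -1.10 ± 0.12 (SE), adjusted p = 0.00769). CDKN1A is a p53 target. Of 20 tested p53 targets, listed after the called genes were seen, it was the 1 called, SESN1 was the only other one below WT in every library (log2 fold change -0.53, adjusted p = 0.133), and the list's median was -0.04. These 2 genes were 10% of the list, against 4.36% of all genes. The list of cell cycle genes, which includes CDKN1A itself, leaned the opposite way. Of 44 tested cell cycle genes, 40 had a positive log2 fold change, against 50.7% of all genes, with a median of 0.21, and 6 had all BR libraries above all WT libraries (13.6% against 3.84%). DESeq2 called 3 of the list higher and 1 lower, and edgeR called none higher and only CDKN1A lower. In edgeR, 15 of the 44 had an unadjusted p under 0.05. TOP2A, a DNA topoisomerase of dividing cells, was at 372, 272, 423 and 280.1 CPM in WT and 502, 496, 543 and 487 CPM in BR and MKI67, the proliferation antigen, at 557, 396, 539.9 and 400.1 CPM in WT and 655, 681, 648 and 647 CPM in BR. Both were higher in each BR library than in any WT library (log2 fold change 0.59, adjusted p = 0.15 and log2 fold change 0.47, adjusted p = 0.184). The list's summed level was 10186 ± 505 CPM in WT and 11961 ± 338 CPM in BR (SD, n = 4 each), with no overlap. The median was 0.19 to 0.27 over all alternatives.

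Several surface receptors and immune genes were lower in BR. LY9, a receptor of the SLAM family found on B and plasma cells, was at 31.2, 33.3, 35.1 and 36.2 CPM in WT and 14.5, 15.5, 16.3 and 14.3 CPM in BR. The 4 libraries within each line were close and the lines lay far apart (log2 fold change -1.16 ± 0.10 (SE), adjusted p = 0.00185). The neighbouring tested genes on chromosome 1 include 4 other SLAM family members. Of these CD48 was at 30.2, 36.8, 33.2 and 44.1 CPM in WT and 17.7, 16.02, 24.9 and 14.3 CPM in BR and was not called (log2 fold change -0.98, adjusted p = 0.0613). CD84 was at 7.79, 6.42, 6.21 and 6.45 CPM in WT and 6.61, 6.58, 6.68 and 7.36 CPM in BR, which overlapped between the lines, as did SLAMF6 and SLAMF7 (log2 fold change -0.36 and -0.33). Of 15 tested purinergic genes, whose receptors sense extracellular nucleotides, P2RY6 and P2RX7 were called. Of all genes 0.340% were called, but this list was drawn up after the called genes were seen, so the shares are not comparable. Of the 15, 3 lay below WT in every BR library and 2 above, P2RX2 and P2RX5. The 15 include the read-through gene PPAN-P2RY11. P2RY6, which binds UDP, was at 20.98, 19.2, 16.7 and 18.2 CPM in WT and 8.53, 6.05, 7.94 and 4.59 CPM in BR and P2RX7, an ATP-gated channel, at 12.1, 12.96, 10.5 and 10.9 CPM in WT and 7.34, 5.41, 6.74 and 6.10 CPM in BR. Neither overlapped between the lines (log2 fold change -1.47, adjusted p = 0.0162 and log2 fold change -0.85, adjusted p = 0.0438), and P2RX5 was not called (log2 fold change 0.33, adjusted p = 0.29). TRPM8, a cold-sensing cation channel, was abundant in WT at 152, 219, 166 and 200.2 CPM and lower in BR at 107, 88.3, 101 and 79.9 CPM. All BR libraries were below all WT libraries (log2 fold change -0.97 ± 0.14 (SE), adjusted p = 0.0268).

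PLD4, a nuclease of endolysosomes, was at 35.5, 44.4, 31.4 and 50.6 CPM in WT and 17.1, 15.5, 17.97 and 13.3 CPM in BR. It did not overlap (log2 fold change -1.34 ± 0.17 (SE), adjusted p = 0.0162). IL22RA1, a subunit of the IL-22 receptor, was low throughout, at 1.65, 2.22, 3.08 and 2.34 CPM in WT and 0.339, 0.531, 0.548 and 0.991 CPM in BR (log2 fold change -1.94, adjusted p = 0.0238). CCL3, a macrophage chemokine that myeloma cells secrete, was at 42.6, 129.8, 62.8 and 124 CPM in WT and 6.83, 18.04, 16.5 and 17.3 CPM in BR. Both second WT libraries lay above both first ones, and none overlapped BR (log2 fold change -2.62 ± 0.40 (SE), adjusted p = 0.0295). Of 11 tested chemokines and receptors only CCL3 was called (0.340% of all genes were called). In that list 3 lay below and 1 above WT in every BR library, 27.3% and 9.09% against 4.36% and 3.84% of all genes. CCL5 was at 24.6, 62.7, 22.9 and 58.4 CPM in WT and 15.6, 17.5, 14.7 and 18.3 CPM in BR, below WT in every library (log2 fold change -1.35, adjusted p = 0.148). PECAM1, the adhesion molecule CD31, was higher in BR, with 43.2, 26.2, 46.5 and 28.2 CPM in WT and 83.3, 91.3, 89.3 and 88.3 CPM in BR. The lines did not overlap (log2 fold change 1.29 ± 0.18 (SE), adjusted p = 0.0239), and the second BR SI-2 library, which held the stromal reads, was not the highest of its line. Without that library its log2 fold change was 1.30 with an adjusted p of 0.0758. VWF and CDH5, the defining endothelial markers, had 17 and 2 counts in the second BR SI-2 library, against at most 1 each in the other 7. The part of stray reads in the PECAM1 difference was not tested.

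Among enzymes, P4HA2, a subunit of collagen prolyl hydroxylase, was higher in BR, with 69.6, 55.6, 89.7 and 63.7 CPM in WT and 167, 206, 184 and 205 CPM in BR (log2 fold change 1.46 ± 0.14 (SE), adjusted p = 0.00386). Its partner subunit P4HB, also an ER protein disulfide isomerase, lay below WT in all BR libraries without being called, at 1569.8, 1682, 1262 and 1722 CPM in WT and 1208, 1142, 1059 and 1012 CPM in BR (log2 fold change -0.50, adjusted p = 0.108). CYP26A1, which degrades retinoic acid, was lower in BR, with 6.31, 6.37, 6.76 and 7.06 CPM in WT and 2.54, 1.91, 2.52 and 1.30 CPM in BR. The lines did not overlap (log2 fold change -1.68 ± 0.22 (SE), adjusted p = 0.0162). CYP26A1 was the only 1 called of 11 tested retinoid genes (0.340% of all genes were called), a list drawn up after the called genes were seen. ST14, the membrane serine protease matriptase, was at 10.1, 14.01, 7.52 and 16.1 CPM in WT and 4.01, 2.81, 2.68 and 2.97 CPM in BR (log2 fold change -1.94 ± 0.26 (SE), adjusted p = 0.0162). Both first WT replicates held less of it than both second ones, and the lowest still exceeded every BR library. PRSS16, a thymus-type serine protease, differed less than 2-fold (log2 fold change -0.86, adjusted p = 0.0128), as did AACS, which activates acetoacetate (log2 fold change -0.76, adjusted p = 0.0307), EXTL2, a glycosaminoglycan transferase (log2 fold change -0.78, adjusted p = 0.0347), CYB561, a transmembrane ascorbate reductase (log2 fold change -0.95, adjusted p = 0.0295), and AIG1, a lipid hydrolase (log2 fold change -0.62, adjusted p = 0.0295). SELENOM, an ER selenoprotein, was at 6.03, 6.20, 4.39 and 5.84 CPM in WT and 3.67, 2.55, 2.36 and 2.14 CPM in BR (log2 fold change -1.08, adjusted p = 0.0472). All 6 were below WT in each BR library.

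Cytoskeletal and junction genes parted the lines in both directions. MICAL2, an enzyme that oxidizes and takes apart actin filaments, was low but higher in BR, with 0.796, 0.775, 1.26 and 0.556 CPM in WT and 2.09, 2.18, 2.79 and 2.92 CPM in BR (log2 fold change 1.54, adjusted p = 0.0435). SHANK2, a scaffold protein of synapses, was at 3.75, 4.04, 3.13 and 3.06 CPM in WT and 7.51, 10.5, 5.31 and 8.87 CPM in BR (log2 fold change 1.20, adjusted p = 0.0426). Going down, FHL1, a LIM protein first known from muscle, was at 101, 76.9, 97.5 and 76.99 CPM in WT and 47.9, 43.8, 48.6 and 38.4 CPM in BR, with no overlap (log2 fold change -0.98 ± 0.13 (SE), adjusted p = 0.0163). MYBPC2, a myosin-binding protein of fast muscle, was at 27.2, 43.7, 21.5 and 40.3 CPM in WT and 8.30, 13.2, 8.44 and 11.01 CPM in BR (log2 fold change -1.69 ± 0.24 (SE), adjusted p = 0.0253). TMEM47, a claudin-related membrane protein, was at 3.75, 5.09, 3.68 and 4.28 CPM in WT and 1.58, 1.86, 0.986 and 1.36 CPM in BR (log2 fold change -1.55, adjusted p = 0.0162), and SH3BGRL2, a small thioredoxin-fold protein, at 34.7, 56.2, 39.9 and 45.3 CPM in WT and 20.4, 20.9, 20.8 and 17.5 CPM in BR (log2 fold change -1.15, adjusted p = 0.0162). For both genes every BR library was below every WT library. Of the keratins, KRT86 rose, at 1.59, 0.886, 1.54 and 1.22 CPM in WT and 4.29, 3.45, 3.34 and 3.50 CPM in BR (log2 fold change 1.47, adjusted p = 0.0295), and KRT80 fell, at 4.32, 9.03, 5.00 and 9.23 CPM in WT and 1.36, 2.33, 1.37 and 2.24 CPM in BR (log2 fold change -1.91, adjusted p = 0.0472). The second BR SI-2 library, which held epithelial reads, was within the range of the other BR libraries for KRT86 and KRT80.

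Genes better known from brain, eye or embryo also parted the lines. IGF2BP3, an oncofetal RNA-binding protein, was at 35.02, 29.7, 36.2 and 29.6 CPM in WT and 7.96, 8.44, 8.71 and 7.30 CPM in BR and had the smallest adjusted p of all (log2 fold change -2.01 ± 0.12 (SE), adjusted p = 0.000323). Of 10 tested genes of the oncofetal RNA-binding list, only IGF2BP3 was called (0.340% of all genes were called). CRYBB1, a lens crystallin on chromosome 22, was at 1.76, 1.11, 1.48 and 1.56 CPM in WT and 9.37, 6.63, 7.61 and 7.46 CPM in BR (log2 fold change 2.39 ± 0.20 (SE), adjusted p = 0.00185). PCP4, a regulator of calmodulin in neurons, was at 1.25, 0.443, 1.04 and 0.779 CPM in WT and 5.93, 4.93, 3.34 and 3.86 CPM in BR, with the lowest BR library 2.67-fold above the highest WT one (log2 fold change 2.33 ± 0.30 (SE), adjusted p = 0.0162). FOXP2, a forkhead transcription factor, was lower in BR, with 3.70, 3.65, 4.01 and 3.56 CPM in WT and 1.02, 0.902, 1.31 and 1.72 CPM in BR. Its lines did not overlap (log2 fold change -1.60 ± 0.21 (SE), adjusted p = 0.0162). KIAA1549L, a membrane protein gene with little known function, was higher in BR, with 14.6, 12.6, 16.3 and 12.5 CPM in WT and 36.2, 35.2, 23.9 and 31.04 CPM in BR (log2 fold change 1.16 ± 0.15 (SE), adjusted p = 0.0162), and so was RTL6, derived from a retrotransposon, at 6.42, 3.93, 4.89 and 5.23 CPM in WT and 13.9, 12.2, 10.7 and 12.9 CPM in BR (log2 fold change 1.28 ± 0.17 (SE), adjusted p = 0.0162). The gene listed only by the identifier 107985837 was at 0.682, 0.831, 0.879 and 0.779 CPM in WT and 2.82, 2.97, 2.14 and 2.19 CPM in BR (log2 fold change 1.65, adjusted p = 0.0162).

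IFT27, a small GTPase of the transport machinery of cilia, was near the limit of detection in WT, with 2, 1, 4 and 4 counts, against 28, 36, 42 and 30 counts in BR. The summed counts were 136 against 11, and their ratio relative to the scaled library sizes was 12.04 with an exact 95% interval of 6.52 to 24.7 that covers counting error only (adjusted p = 0.00386). INHBE, a TGF-beta family subunit and a known ATF4 target, was at 102, 156, 76.6 and 136 CPM in WT and 55.6, 32.8, 38.5 and 27.8 CPM in BR. The lines did not overlap, although the first WT SI-2 and the first BR vehicle library came nearest (log2 fold change -1.61 ± 0.24 (SE), adjusted p = 0.0268). MCTP2, a calcium-binding membrane protein, was at 3.92, 3.65, 3.62 and 3.67 CPM in WT and 1.69, 1.17, 1.75 and 1.51 CPM in BR (log2 fold change -1.28, adjusted p = 0.0267). CERCAM, an adhesion molecule on chromosome 9, was at 66.3, 67.1, 45.7 and 63.4 CPM in WT and 33.8, 21.7, 31.1 and 21.5 CPM in BR (log2 fold change -1.16, adjusted p = 0.0295). KLHL29 was lower by less than 2-fold (log2 fold change -0.85, adjusted p = 0.0267), and MTMR10, a phosphatase-like protein, was the most abundant gene called higher by the mean over both lines, at 234 ± 27.3 CPM in WT and 357 ± 36.00 CPM in BR (SD, n = 4 each; log2 fold change 0.61, adjusted p = 0.0425, edgeR). P4HA2, PECAM1 and KIAA1549L were also among the 5 most abundant genes called higher, and RPL7A, TRPM8, INHBE, FHL1 and AACS were the 5 most abundant genes called lower by the mean over both lines. The last genes inside the threshold were TGFA, KRT80 and SELENOM (adjusted p = 0.0472 each). Just outside it lay IGFBP7, an insulin-like growth factor binding protein (log2 fold change 0.68, adjusted p = 0.0503), PIPOX, which oxidizes pipecolate (log2 fold change -0.97, adjusted p = 0.0503), and PIP5KL1, related to phosphoinositide kinases (log2 fold change -1.71, adjusted p = 0.0559).

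Ribosomal protein genes, whose products make up the cytosolic ribosome, leaned lower almost throughout. Of 79 tested, 77 had a negative log2 fold change and 55 had all BR libraries below all WT libraries, 69.6% against 4.36% of all genes, although only RPL7A was called. DESeq2 called 17, all lower, and 56 had an unadjusted p under 0.05 in edgeR. These genes have many near-identical pseudogenes, so the division of shared reads leaves single values uncertain. The median was -0.22, and under the other scalings it was -0.24 (upper quartile) and -0.19 (library size only), against -0.01 and 0.03 for all genes. These genes took 6.84 ± 0.300% of the scaled counts in WT and 5.88 ± 0.227% in BR (SD, n = 4 each). The first WT SI-2 library was the lowest of WT at 6.41% and the first BR vehicle library the highest of BR at 6.18%, and they did not overlap. RPL7A was at 987, 1033, 907 and 1021 CPM in WT and 732, 666, 673 and 648 CPM in BR (log2 fold change -0.54 ± 0.08 (SE), adjusted p = 0.0295). RPL12 followed at 713, 668, 646 and 668 CPM in WT and 510.2, 469.6, 516 and 413 CPM in BR (log2 fold change -0.50, adjusted p = 0.0818), then RPL17 (log2 fold change -0.42, adjusted p = 0.104) and RPL29 (log2 fold change -0.41, adjusted p = 0.125). Of 15 other messenger RNAs known for a pyrimidine tract at their start, all 15 were negative, against 49.3% of all genes, with a median of -0.32, 0 called by edgeR, 2 by DESeq2, 12 at an unadjusted p under 0.05 and 5 below WT in every library (33.3% against 4.36%). EEF1A1, the elongation factor that carries tRNA to the ribosome, was at 18565, 20372, 17226 and 20120.5 CPM in WT and 16530.0, 15374, 15401 and 13771 CPM in BR (log2 fold change -0.32, adjusted p = 0.148). The ribosomal protein and tract lists were drawn up after the called genes were seen.

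What the ribosomal protein genes shared beyond function was the sequence at their start. A tract that opens with C and runs on through at least 4 further C or T bases from the first transcribed base was found in 47 of the 63 ribosomal protein genes with a RefSeq window (74.6%), and in 1404 of 27305 genes overall (5.14%). The 47 genes with the tract had a median log2 fold change of -0.22 and the 16 without it -0.21. The windows of the 3 family members that lie in the lower stretch of chromosome 9 described next are shown from 100 bases before the start to 15 after it, as RefSeq (GRCh38.p14) gives them, with the tract in capitals. RPL7A lies at chr9:133348118-133348232 (plus strand), RPL12 at chr9:127451392-127451506 (minus strand) and RPL35 at chr9:124861943-124862057 (minus strand).
RPL7A: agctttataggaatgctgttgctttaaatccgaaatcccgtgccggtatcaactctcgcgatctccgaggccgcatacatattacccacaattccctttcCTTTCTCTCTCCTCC
RPL12: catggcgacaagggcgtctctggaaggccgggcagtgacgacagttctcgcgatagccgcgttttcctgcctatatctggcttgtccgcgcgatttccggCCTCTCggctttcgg
RPL35: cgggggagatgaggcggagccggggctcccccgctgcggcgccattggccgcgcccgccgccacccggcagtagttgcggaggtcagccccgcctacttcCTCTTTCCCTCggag
All 3 were below WT in every BR library, with log2 fold changes of -0.54, -0.50 and -0.39.

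Chromosome 9 carried the other shift shared by many genes. Tested genes were taken in RefSeq order and split into 436 blocks of 30, and the median of each block was computed per library. All BR medians were below all WT medians in 26 blocks (5.96%) and above in 19 (4.36%). Chromosome 9 held 11 of the 26, out of its 17 blocks, whereas the other chromosomes held 15 in 419. Its first 3 blocks had medians of 0.08, -0.0038 and 0.05. In all later blocks the medians were -0.31 to -0.08. The start of the first of the 11 blocks was taken as a border after these values were seen. From there to the end of the chromosome there were 398 tested genes, of which 322 had a negative log2 fold change (80.9%), 85 lay below WT in every BR library (21.4% against 4.36% of all genes) and 2 lay above. Their median was -0.18 (quartiles -0.36 and -0.04), a 0.885-fold level. It was -0.19 in vehicle and -0.18 in SI-2, and -0.17 with the 3 ribosomal protein genes taken out. The 120 genes before the border had a median of 0.01, with 58 negative. In contrast to the ATF4 genes, the first WT SI-2 and the first BR vehicle library stayed with their lines here. The border was set at a block whose library medians were parted by line, which favours this. The library medians, relative to each gene's mean, were 0.0908, 0.115, 0.0665 and 0.122 in WT and -0.0903, -0.0931, -0.0899 and -0.0770 in BR.

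**Figure D3:**
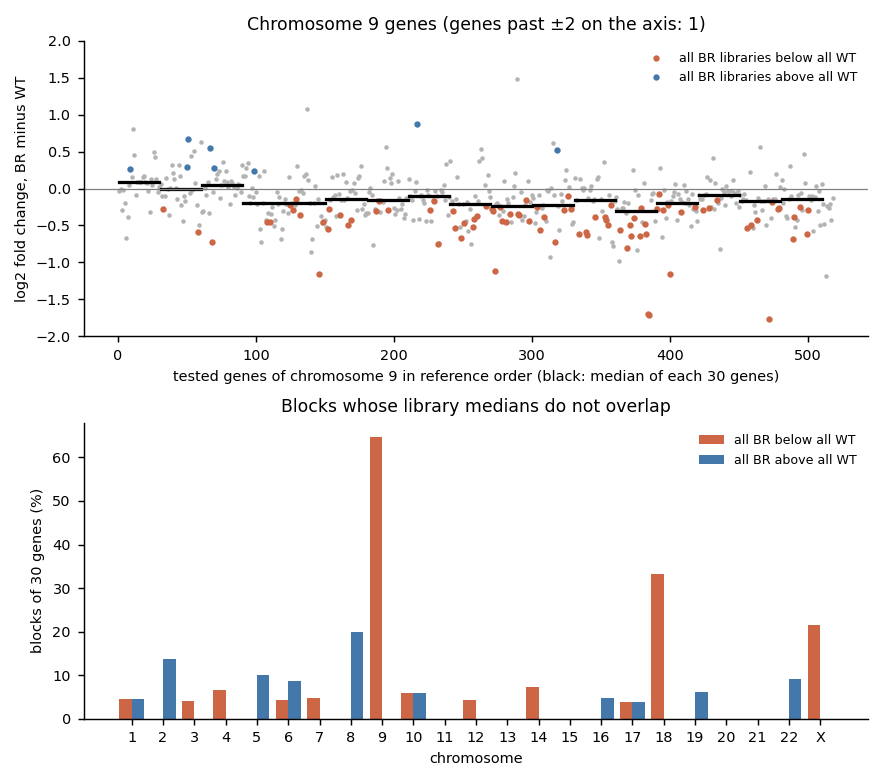
Top, log2 fold change (BR minus WT) of the 518 tested genes of chromosome 9 in reference order, with black bars for the median of each 30 genes and colour for genes whose libraries do not overlap. The bars sit near 0 for the first 3 blocks and below 0 after them. Bottom, for each chromosome, the percent of its blocks of 30 genes in which all BR library medians were below (orange) or above (blue) all WT medians, 64.7% below for chromosome 9.

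Within the 398 genes only CERCAM and RPL7A were called. PIP5KL1 lay just outside the threshold, at 40.4, 70.1, 29.9 and 62.3 CPM in WT and 25.7, 13.3, 13.9 and 10.4 CPM in BR. Gene copy number was not measured, and neither it nor any other cause was tested. Of the 45 called genes with a RefSeq position, KRT80 and KRT86, on chromosome 12 and in opposite directions, were the only pair within 5 tested genes of each other. KRT81, beside KRT86, was also above WT in every BR library without being called (log2 fold change 1.52, adjusted p = 0.133), and reads of such related keratins may be divided uncertainly. Among the 10 nearest tested genes of these called genes (8 for RASA3), a median log2 fold change in the same direction beyond 0.3 was seen for INHBE alone, at -0.36, and non-overlapping neighbours in the same direction were most numerous at RTL6, with 5 of 10. Chromosome 22 held 4 called genes of 346 tested (1.16% against 0.340%), CRYBB1, IFT27 and RTL6 higher and SELENOM lower. RefSeq order comes from GRCh38.p14 while the files were made on hg19, so a few genes may stand in another order there.

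Genes of ER folding and of the ATF4 amino acid response leaned lower in BR but did not part the libraries. Of 32 tested ER and unfolded protein response genes, 31 were negative with a median of -0.48, 0 were called, and 3 lay below WT in every BR library (9.38% against 4.36% of all genes). CANX, the chaperone calnexin, was at 1922, 1985, 1805 and 1989.8 CPM in WT and 1708, 1577, 1635 and 1423 CPM in BR (log2 fold change -0.28, adjusted p = 0.219). HSP90B1, the ER chaperone GRP94, was at 1519, 1296, 1269 and 1242 CPM in WT and 1162, 789, 1149 and 709 CPM in BR (log2 fold change -0.48, adjusted p = 0.271), and PDIA6, a protein disulfide isomerase, was likewise below WT in each BR library (log2 fold change -0.35, adjusted p = 0.275). CRELD2, an ER stress gene, was at 86.8, 78.2, 52.5 and 78.5 CPM in WT and 55.7, 33.7, 43.99 and 29.01 CPM in BR, where the first BR vehicle library exceeded the first WT SI-2 library (log2 fold change -0.86, adjusted p = 0.133). DESeq2 called 2 of the list, both lower, and 15 had an unadjusted p under 0.05 in edgeR. All 33 tested ATF4 genes were negative, with a median of -0.46, and INHBE was the 1 called. DESeq2 called 3, all lower, 13 had an unadjusted p under 0.05 in edgeR, and 2 lay below WT in every BR library (6.06% against 4.36%). SLC3A2, the heavy chain of amino acid transporters, was at 676, 929, 696 and 964 CPM in WT and 596, 493, 623 and 479.6 CPM in BR, with every BR library below WT (log2 fold change -0.57, adjusted p = 0.17). Summed levels overlapped for both lists. For the ER list they were 17913, 15907, 13991 and 15594 CPM in WT and 14979, 9742, 13820.3 and 8928 CPM in BR. For the ATF4 list they were 15224, 17571, 12082 and 16792 CPM in WT and 15765, 9548, 11903 and 9035 CPM in BR. Without the first WT SI-2 and the first BR vehicle library the medians were -0.87 and -0.81. These were the lowest WT and the highest BR library of both lists, so the lower medians follow from that choice.

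**Figure D4:**
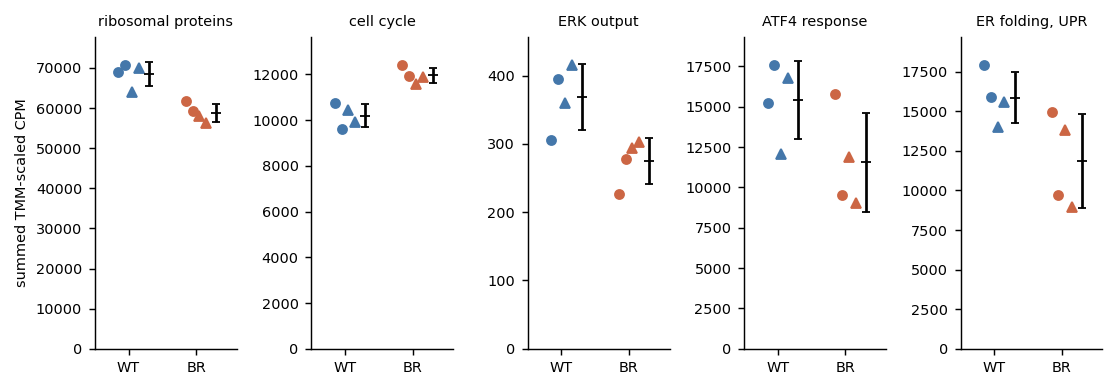
Summed TMM-scaled CPM of 5 gene lists, 1 point per library (circles, vehicle; triangles, SI-2; blue, WT; orange, BR), with the mean and SD of the 4 libraries as black bars and each axis starting at 0. The lines do not overlap for ribosomal proteins, cell cycle and ERK output, and they overlap for the ATF4 response and for ER folding.

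Genes of the proteasome, the target of BTZ, did not separate the libraries by line. Of 33 tested genes of the core proteasome, 0 were called by edgeR, 0 were free of overlap, and the median was 0.02, with values from -0.29 to 0.44 and 1 at an unadjusted p under 0.05. DESeq2 also called 0. PSMC5, an ATPase of the regulatory particle, had the smallest p, at 146, 92.5, 141 and 98.2 CPM in WT and 146, 177, 143 and 177 CPM in BR (log2 fold change 0.43, adjusted p = 0.321). Of 33 tested ABC transporters and of 25 tested heat shock genes, 0 were called by edgeR or DESeq2, with 4 and 7 at an unadjusted p under 0.05. In the BCL2 family 0 of 22 were called by edgeR and 1 by DESeq2, with 6 at an unadjusted p under 0.05, and BCL2L1, which encodes the survival protein BCL-XL, was the only one whose lines did not overlap (4.55% of the list against 3.84% of all genes higher), at 40.9, 46.2, 47.1 and 47.4 CPM in WT and 68.8, 57.99, 74.5 and 60.4 CPM in BR (log2 fold change 0.53, adjusted p = 0.103). DNAJA1, HSPE1 and HSP90AA1, chaperones of cytosol and mitochondria, were above WT in every BR library by small amounts (log2 fold change 0.28, adjusted p = 0.244, log2 fold change 0.28, adjusted p = 0.272 and log2 fold change 0.18, adjusted p = 0.34). They were 12% of the heat shock list, against 3.84% of all genes higher.

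**Figure D5:**
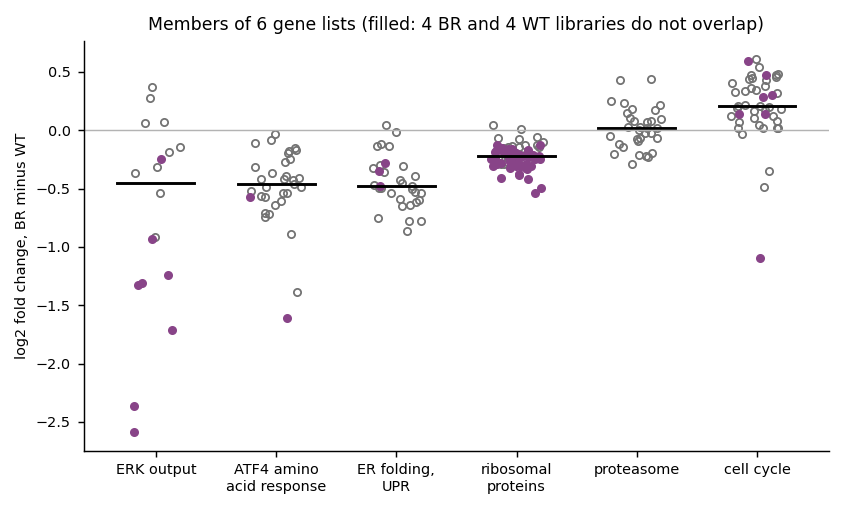
Log2 fold change (BR minus WT) of the tested members of 6 gene lists, 1 point per gene. Filled points are genes whose 4 BR and 4 WT libraries do not overlap, and black bars are medians. Most ribosomal protein genes are filled and below 0, no proteasome gene is filled, and the ATF4 and ER lists are below 0 with few filled points.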

How the data were processed

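RNA of 8 LP-1 libraries was sequenced on a BGISEQ-500. The authors removed low-quality reads and deposited estimated counts per gene and per transcript, and FPKM. BWA, Bowtie2, RSEM and hg19 are named in the submitters' processing notes, without roles. The authors' tables of SI-2 fold changes and p-values were not used. Estimated counts were rounded and fitted in edgeR 4.0.16 (R 4.3.3) by the quasi-likelihood test on treatment and line, after filterByExpr by line and TMM scaling, and adjusted by Benjamini-Hochberg over 13520 of 18564 genes. limma 3.58.1 on log2(FPKM + 1) and log2(FPKM + 0.1), DESeq2 1.42.0, other scalings, filters and left-out libraries were alternatives. Tests were checked on simulated data. Groups came from the sample titles. The total of 17997771 to 18570027 estimated counts per library limits precision for genes of few counts. Each SE was worked back from the test, as the absolute log2 fold change over the square root of its F statistic. Intervals cover counting error only. Named were all called genes, up to 4 members of smallest p per list, the 5 most abundant called genes per direction and those next to the threshold. Further genes, mostly those without overlap, were chosen after their values were seen. Members and lists were chosen with earlier results of these data known. Symbols turned into dates (25) were restored by gene identifier, and 18267 identifiers matched RefSeq GRCh38.p14, used for names, order and promoter sequences only. A few items are not reported here.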

Additional observations from a re-analysis of the deposited data

Results flagged for a closer look

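In 9 of 116 groups of 4 libraries, 1 library stood far from the other 3 by Dixon's criterion. Chance alone gives this in about 1 in 20 groups. CDKN1A was at 61.3 CPM in the first WT SI-2 library and 79.8 to 81.0 CPM in the other WT libraries. SH3BGRL2 was at 17.5 CPM in the second BR SI-2 library, against 20.4 to 20.9 CPM in the other BR libraries. MCTP2 was at 3.92 CPM in the first WT vehicle library, against 3.62 to 3.67 CPM. The first BR vehicle library stood apart for CCL3 at 6.83 CPM, against 16.5 to 18.04 CPM, for KRT86 at 4.29 CPM, against 3.34 to 3.50 CPM, and for MTMR10 at 304 CPM, against 370 to 383 CPM. The second BR SI-2 library stood apart for summed stromal markers at 129.6 CPM, against 0.383 to 0.743 CPM, summed epithelial markers at 15.4 CPM, against 4.99 to 6.74 CPM, and summed T and NK cell markers at 6.10 CPM, against 1.97 to 2.33 CPM.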

How the results depend on the processing

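The 46 genes called became 337 in DESeq2 (106 higher, 231 lower), 19 with the 4 condition means, 3 with an additional 2-fold threshold (CRYBB1, IFT27 and IGF2BP3), 157 without the first WT SI-2 and the first BR vehicle library, and 16 without these and the second BR SI-2 library. With 1 library left out there were 8 to 51, and the 51 came without the first WT SI-2 library. The other scalings, filters, limma fits, the newer edgeR form and the fit without treatment gave 40 to 61. With the replicate block 126 genes were called, all 46 among them. Deviations of same-numbered libraries correlated at 0.52 within WT and 0.46 within BR, and at -0.20 to 0.21 between the lines. Since 4 of 6 pairs of conditions, not all, exceeded 0.1, the numbers were not taken as pairing. Within each line, however, same-numbered libraries deviated together. The fit and the SDs over 4 libraries count them as independent, so adjusted p values and SDs may be too small. The interaction called 1 gene in DESeq2. Alternatives for list medians were added after the data were seen. Without that pair the median was -0.87 for ER genes and -0.81 for ATF4 genes (with 1 library left out, -0.72 to -0.30 and -0.65 to -0.34). The pair was the lowest WT and the highest BR library of both lists, so the lower medians follow from that choice. For the last 398 tested genes of chromosome 9 it was -0.15 by library size only, -0.14 and -0.16 by limma, -0.20 without the pair, -0.21 without the 3 libraries and -0.21 to -0.17 with 1 left out. The proteasome median changed sign between settings, from -0.06 to 0.04. No called gene was reversed, which follows largely from their libraries not overlapping. The causes of these changes were not tested. With 2 libraries per condition, small differences and genes of few counts are poorly resolved.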

Other observations

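Further genes parted the lines without being called by edgeR. The insulin-like growth factor binding proteins IGFBP7 and IGFBP3 were higher in every BR library, with log2 fold changes of 0.68 and 0.97. POU2F2, a B cell transcription factor, was higher in every BR library (0.80), whereas FKBP11, a prolyl isomerase of secretory cells, was lower (-0.90). Outside chromosome 9, blocks of 30 genes with all BR medians below all WT medians were 2 of 6 on chromosome 18 and 3 of 14 on X, and blocks with all BR medians above were 3 of 15 on chromosome 8 and 4 of 29 on chromosome 2.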
